A study of Mus musculus with 45 samples.

Results

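AP-1 is a family of dimeric transcription factors, and 9 of its subunit genes were followed here by symbol in the deposited count table: Fos, Fosb, Fosl1 and Fosl2 of the Fos family, Jun, Junb and Jund of the Jun family, and Batf3 and Atf3 of the related BATF and ATF families. All 9 members were in the table. Of these, 8 passed the low count filter that left 14668 genes for testing, and Fosl1 did not. Fosl1 had 21 counts over the whole study and was at 0 in 30 of 41 samples, so no comparison was made for it. Of its 2033 exon bases, 1055 in 1 exon are shared with an exon of Ccdc85b on the other strand, and the strand setting of the counting is not given. The part of that overlap in the low count was not tested.

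Fos proteins bind DNA as dimers with Jun proteins through a basic leucine zipper (bZIP), mainly at the TPA response element and, with ATF partners, at the cyclic AMP response element. Fos, Fosb, Jun and Junb are classical immediate early genes, transcribed within minutes of a stimulus without new protein synthesis. In T cells AP-1 cooperates with NFAT and IRF factors after antigen receptor stimulation. Junb has been linked to effector Treg programmes in mice, and Batf3 is best known for the development of cross-presenting dendritic cells.

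RNA was measured in T cells sorted from mice with B16 melanomas, a transplantable mouse skin tumour line. Regulatory T cells (Tregs), the Foxp3-expressing CD4 cells that restrain immune responses, came from the tumour or from non-draining lymph nodes (NDLN), and effector T cells came from the tumour of WT mice. Tumour Tregs formed 4 groups. The first was N, whose genotype label, Het_Nrp1-, is the same as that of the second, HetNrp1def, and which was kept apart by its sample titles. The series names homozygous as well as heterozygous Nrp1-deficient mice, but the labels do not say that N is homozygous. The others were HetWT (label Het_WT) and WT, neither of them labelled as Nrp1-deficient. Lymph node Tregs formed the same 4 groups, which makes 9 groups with the effector T cells. Nrp1 encodes neuropilin-1, a membrane co-receptor. The promoter or Cre driver behind its deletion, the deleted part of the gene, and the ages, sexes and numbers of mice per library are not given in the labels, and nothing there says that replicates came from separate animals. The p-values below therefore speak only of how much these samples vary, and that variation may be technical. Each Treg library was made from 5000 cells sorted either singly (replicate numbers 2, 3 and 4) or doubly (ds1 and ds2, read from their names).

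The 45 libraries held 2945638 to 35787148 counts (median 10248080), and the 9 ds2 libraries were the shallowest, at 5408375 counts or fewer. In 4 groups, 2 libraries were nearly identical (chi-square per degree of freedom over genes 2.42 to 2.75, against 68.4 or above in the other 86 pairs of a group). Each such pair was summed and counted as 1 sample with the number 4, which left 41 samples, 4 in each heterozygous group and 5 in each other group. In both heterozygous lymph node groups the summed pair joins numbers 3 and 4. In both heterozygous tumour groups it joins ds1 with number 4, so a library named as double sorted was joined with a single-sorted one. These summed samples are counted below as single-sorted, so results for single-sorted samples include them. Some pairs of different groups were also close: the lowest chi-square per degree of freedom between groups was 14.9, for the ds2 libraries of HetNrp1def and N tumour Tregs, and 38 such pairs lay below 68.4. Gene-level Nrp1 counts do not check the deletion, since the deleted part is not named. Nrp1 stood at 130 to 184 CPM (counts scaled to library size) in N, against 103 to 290 CPM in WT tumour Tregs, and at 144 to 338 CPM in N, against 264 to 411 CPM in WT lymph node Tregs. The summed level of 5 Treg markers was 3549 to 9465 CPM in tumour Tregs, 1854 to 4901 CPM in lymph node Tregs and 108 to 278 CPM in effector T cells. Foxp3 itself was low, at 5.99 to 60.0 CPM in tumour Tregs and 0 to 68.8 CPM in lymph node Tregs, and 1 lymph node sample was at 0.

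The promoters of the members whose tissue difference is described first are shown here with that of Fos, the best studied immediate early member, so that the letters around their start sites can be set side by side. They run from 250 bases before to 50 bases after the RefSeq start site on GRCm38.p6 (the mm10 assembly), and 8 of the 9 members had an entry. Position 1 is the start site and -1 the base before it. Capitals mark TGACG or its reverse complement CGTCA, the core of the cyclic AMP response element, searched on both strands, and TATAAA, searched on the gene's strand only. The Fosl2 window is chr5:32136222-32136521 on the plus strand, that of Junb chr8:84978699-84978998 on the minus strand, that of Atf3 chr1:191183284-191183583 on the minus strand, and that of Fos chr12:85473640-85473939 on the plus strand. RefSeq and GENCODE starts differ for some members: the Fosl2, Atf3 and Batf3 windows lie wholly inside the GENCODE gene spans given with each gene, and the Jund window lies before its span. The RefSeq start of Junb lies upstream of its GENCODE start at 84978718, so the Junb positions hold for the RefSeq start only.
Fosl2: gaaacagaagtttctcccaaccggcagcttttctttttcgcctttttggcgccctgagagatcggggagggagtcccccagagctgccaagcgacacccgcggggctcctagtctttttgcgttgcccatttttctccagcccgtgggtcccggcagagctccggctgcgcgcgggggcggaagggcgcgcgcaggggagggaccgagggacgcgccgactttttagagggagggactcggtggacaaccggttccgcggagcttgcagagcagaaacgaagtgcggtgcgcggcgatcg
Junb: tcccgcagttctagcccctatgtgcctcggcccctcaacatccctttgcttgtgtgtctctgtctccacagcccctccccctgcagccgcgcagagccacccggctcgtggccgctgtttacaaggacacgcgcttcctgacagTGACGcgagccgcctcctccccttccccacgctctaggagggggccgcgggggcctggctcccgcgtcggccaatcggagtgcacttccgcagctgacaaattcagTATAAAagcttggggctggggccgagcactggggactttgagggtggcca
Atf3: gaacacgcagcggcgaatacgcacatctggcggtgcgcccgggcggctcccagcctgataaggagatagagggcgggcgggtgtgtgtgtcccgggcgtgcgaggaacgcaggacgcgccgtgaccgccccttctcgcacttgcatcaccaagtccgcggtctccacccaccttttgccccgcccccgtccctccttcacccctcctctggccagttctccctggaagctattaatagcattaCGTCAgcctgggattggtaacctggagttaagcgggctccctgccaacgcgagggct
Fos: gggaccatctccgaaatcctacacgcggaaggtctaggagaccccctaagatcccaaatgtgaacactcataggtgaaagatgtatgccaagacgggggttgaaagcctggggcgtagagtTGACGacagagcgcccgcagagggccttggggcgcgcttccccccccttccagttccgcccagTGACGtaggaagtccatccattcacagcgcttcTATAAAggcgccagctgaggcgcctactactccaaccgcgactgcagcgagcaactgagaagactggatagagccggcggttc

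The Fos window held TGACG at -129 and -66 and TATAAA at -33, the Junb window TGACG at -106 and TATAAA at 1, and the Atf3 window CGTCA at -7. No match to any motif searched was found in the Fosl2, Jund and Batf3 windows. The TGACG core also lay in the Fosb window, at -60, which makes 4 of 8 members, and 20.8% of 32851 RefSeq mouse promoters of the same length hold it. TATAAA is in 8.32% of those promoters. The full TPA response element TGACTCA (5.20% of promoters, both strands), the full cyclic AMP response element TGACGTCA (1.79%, it contains the core) and the CArG box (1.63%) were in none of the 8 windows. The 8-letter variant TGACATCA, found in 3.62% of promoters on either strand, was in the Jun window at -45. The TGACG core and TATAAA were added to the search after these sequences had been seen. Such matches describe letters in these windows and not bound sites.

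Fosl2 encodes FRA2, a Fos-family protein that lacks the strong transactivation domain of c-Fos. The gene lies at chr5:32135801-32157842 on the plus strand (mm10, GENCODE vM21), with 9680 exon bases. Its CPM was 62.2, 93.9, 126, 66.1 and 51.6 in N tumour Tregs (replicates 2, 3, 4, ds1 and ds2), against 0.0970, 8.48, 0.272, 0.233 and 1.26 in N lymph node Tregs. In HetNrp1def Tregs it was 185, 57.9, 79.7 and 51.6 CPM in the tumour (2, 3, 4 and ds2), against 7.05, 0.437, 2.02 and 0 CPM in the lymph node (2, 4, ds1 and ds2). Every tumour sample of these 2 groups lay above every lymph node sample of its group. The share of all genes for which this holds within a group was not counted.

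HetWT Tregs had 177, 78.7, 101 and 33.8 CPM of Fosl2 in the tumour (2, 3, 4 and ds2), against 1.04, 8.30, 1.84 and 0 CPM in the lymph node (2, 4, ds1 and ds2). WT Tregs had 166, 105, 162, 268 and 74.3 CPM in the tumour (2, 3, 4, ds1 and ds2), against 3.26, 29.4, 4.08, 0.158 and 2.93 CPM in the lymph node. Over all genotypes the 18 tumour Treg samples spanned 33.8 to 268 CPM (median 86.8) and the 18 lymph node samples 0 to 29.4 CPM (median 1.55), with no overlap. Of the 14668 genes tested, 41 (0.280%) had every tumour Treg sample above every lymph node one. The highest lymph node sample, WT number 3, was the one nearest the tumour range.

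**Figure D1:**
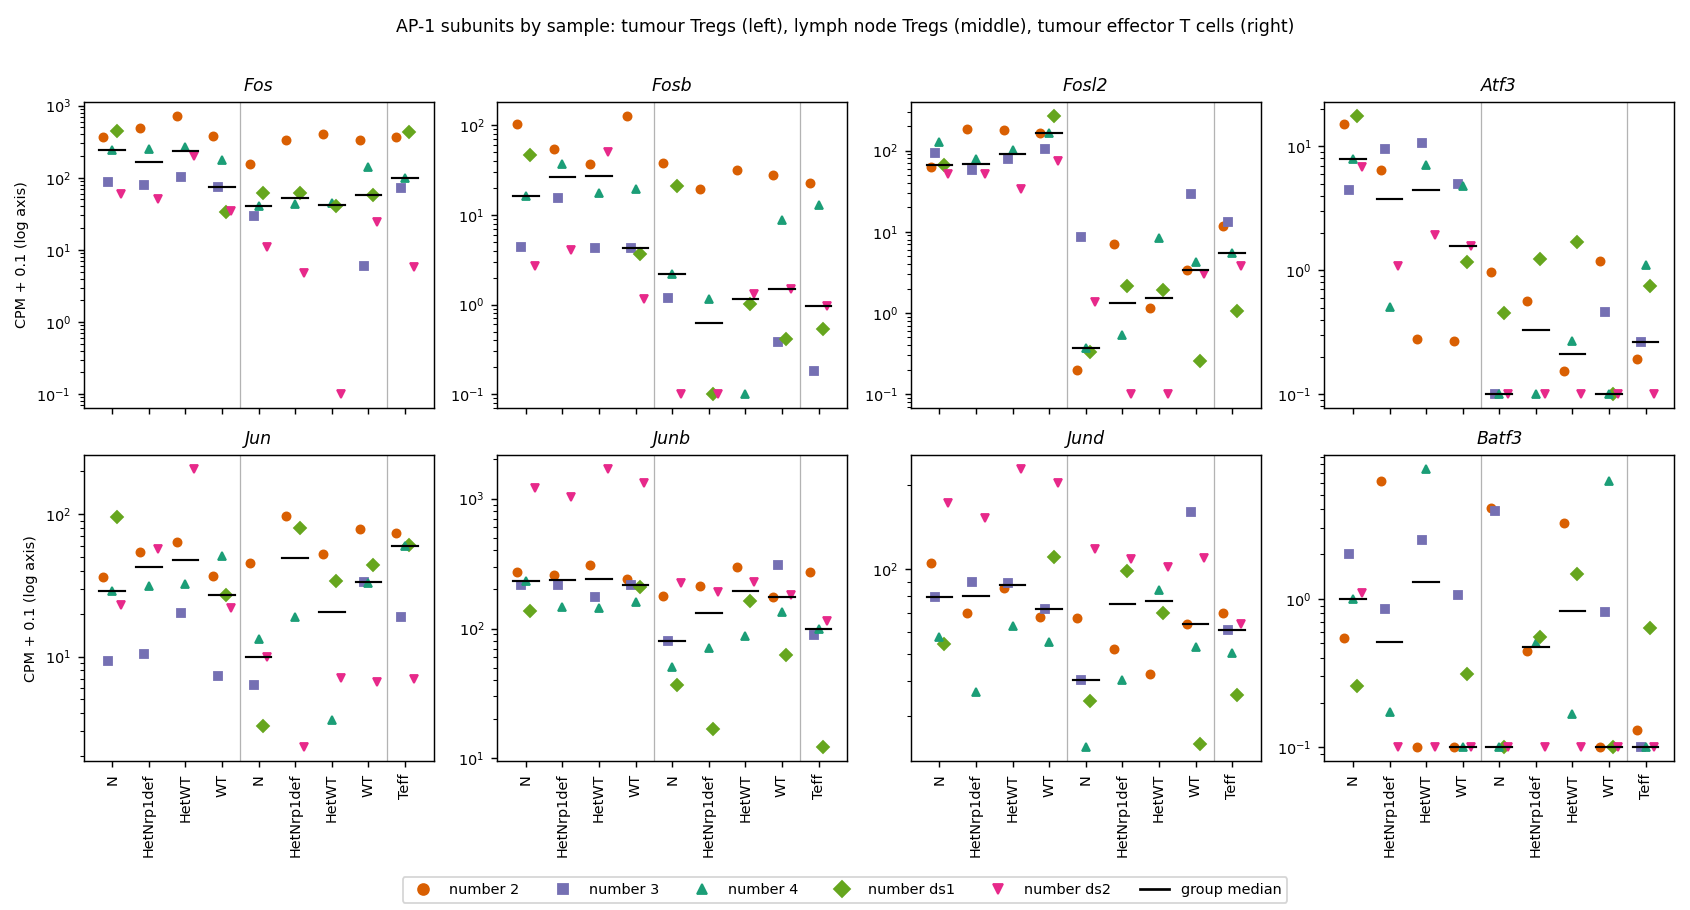
Level of 8 AP-1 subunits in each of 41 samples, as TMM-scaled CPM plus 0.1 on a log axis, by group (tumour Tregs left, lymph node Tregs in the middle, tumour effector T cells right), with the symbol and colour giving the replicate number and a bar the group median. Fosl2 lies between 33.8 and 268 CPM in every tumour Treg sample and at 29.4 CPM or below in every lymph node one, while the ds2 tumour Treg samples stand far above the other tumour samples in Junb.

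In edgeR's quasi-likelihood test over all groups, 3 of the 8 members tested were higher in tumour than in lymph node Tregs and 0 were lower, at a Benjamini-Hochberg adjusted p below 0.05. Of all 14668 genes, 11.2% were called in this comparison, 5.84% as higher and 5.37% as lower. The median log2 fold change of the 8 members was 1.40, against -0.08 for all genes tested, and all 8 estimates were above 0. The members higher in the tumour were Fosl2 (log2 fold change 4.96 ± 0.60 SE, adjusted p = 4.3e-08 by edgeR), Atf3 (3.83 ± 0.87, adjusted p = 0.00160) and Junb (1.63 ± 0.43, adjusted p = 0.00946). In bulk samples such as these, fewer cells that express a gene and less RNA per cell cannot be told apart.

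The Fosl2 estimates were alike in size across genotypes. The log2 fold change between tumour and lymph node was 5.23 ± 1.14 SE in N Tregs (adjusted p = 0.0100 by edgeR), 5.26 ± 1.28 in HetNrp1def Tregs (adjusted p = 0.0319) and 4.27 ± 1.09 in WT Tregs (adjusted p = 0.0375). In HetWT Tregs it was 5.08 ± 1.27 and missed the threshold (adjusted p = 0.0686 by edgeR). It was the member called in each of the first 3 comparisons, each time as higher in the tumour. Of all genes 0.791% were called in N (0.566% higher, 0.225% lower), 0.654% in HetNrp1def (0.348% higher, 0.307% lower) and 0.873% in WT Tregs (0.511% higher, 0.361% lower). In HetWT Tregs edgeR called no member and 0.239% of genes (0.164% higher, 0.0750% lower). There 1 member had an unadjusted edgeR p below 0.05, as had 8.12% of all genes. DESeq2 called 1 member and 1.23% of genes. In WT Tregs the call was lost when lymph node number 2, 4, ds1 or ds2 or tumour number 2, 4 or ds1 was left out, with log2 fold changes of 3.96 to 4.28 and adjusted p of 0.0576 to 0.118 (edgeR). In HetNrp1def Tregs it was lost without lymph node number 4, ds1 or ds2 or tumour number 2, 3 or 4 (log2 fold change 4.78 to 5.49, adjusted p 0.0523 to 0.194 by edgeR), and in HetWT Tregs the gene was called without lymph node number 4 (log2 fold change 6.89, adjusted p = 0.0271 by edgeR). In N Tregs the call was lost with single-sorted samples alone (log2 fold change 4.98, adjusted p = 0.0945 by edgeR) and without all number 2 libraries (4.90, adjusted p = 0.0928).

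**Figure D2:**
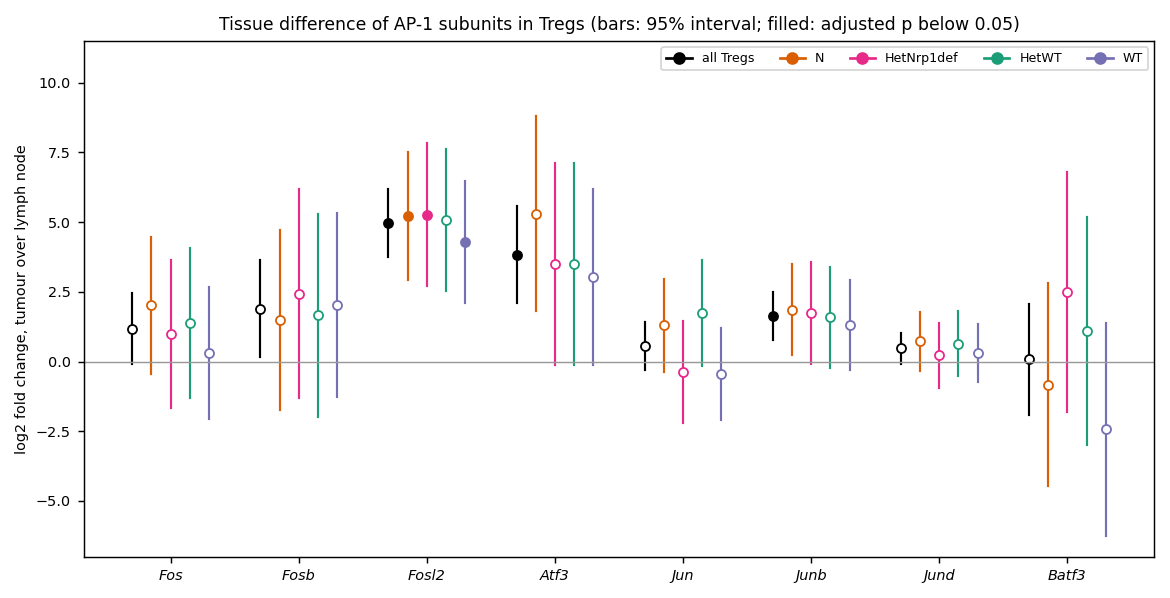
Log2 fold change of tumour over lymph node Tregs for 8 AP-1 subunits, over all Tregs and in each of the 4 genotype groups, with 95% intervals, where filled points have an edgeR adjusted p below 0.05. The 5 Fosl2 estimates lie between 4.27 and 5.26, and the Fos, Jun, Jund and Batf3 intervals all cross 0.

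Replicate number was followed because tumour and lymph node samples of 1 genotype share it, though the labels do not tie a number to a mouse or a day. In the number 4 pairs of HetNrp1def and HetWT, the tumour sample sums ds1 and 4, and the lymph node sample 3 and 4. Those pairs share the number only in part, and they are counted among the 16 throughout. Over the 16 pairs the difference in log2(CPM + 1) of Fosl2, tumour minus lymph node, was positive in 16, between 1.80 and 7.86. The smallest differences, 1.80 and 3.32, were both pairs of number 3. The other 14 pairs were at 3.46 or above.

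Ranked by mean level, the 4 tumour Treg groups came first for Fosl2, with 155 ± 74.2 CPM in WT, 97.7 ± 59.9 in HetWT, 93.5 ± 62.0 in HetNrp1def and 79.9 ± 30.0 in N (SD, n = 5, 4, 4 and 5). Then followed WT lymph node Tregs (7.97 ± 12.1 CPM, n = 5), effector T cells (6.98 ± 5.23, n = 5), and the HetWT (2.79 ± 3.75, n = 4), HetNrp1def (2.38 ± 3.24, n = 4) and N (2.07 ± 3.61, n = 5) lymph node Tregs. Only the step from N tumour Tregs to WT lymph node Tregs separated neighbours whose samples did not overlap.

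Atf3 encodes a stress-induced bZIP protein that often acts as a repressor (chr1:191170296-191218039, minus strand, 2154 exon bases). N tumour Tregs had 15.1, 4.38, 7.89, 17.6 and 6.70 CPM (2, 3, 4, ds1 and ds2), against 0.873, 0, 0, 0.349 and 0 CPM in N lymph node Tregs. These did not overlap, and the share of all genes that do so within N was not counted. Over all genotypes Atf3 ran from 0.169 to 17.6 CPM in tumour Tregs (median 4.78) and from 0 to 1.61 CPM in lymph node Tregs (median 0.0268), where 9 of 18 samples were at 0. The groups overlapped, with 12 of 18 tumour samples above every lymph node sample.

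By genotype the log2 fold change of Atf3 was 5.30 ± 1.74 SE in N Tregs and 3.02 ± 1.58 in WT Tregs, with both heterozygous groups between them, and none passed the threshold (adjusted p 0.169 to 0.646 by edgeR). In N Tregs Atf3 was called by DESeq2 (5.48, adjusted p = 0.00222) and by limma on the deposited log2 values (3.74, adjusted p = 0.0286). In same-numbered pairs it was higher in the tumour in 15 of 16. Tumour samples below 1.0 CPM were HetWT number 2 (0.176), WT number 2 (0.169), HetNrp1def number 4 (0.408) and HetNrp1def ds2 (0.984). The means of the tumour groups were 10.3 ± 5.71 CPM in N, 4.32 ± 4.38 in HetNrp1def, 4.89 ± 4.79 in HetWT and 2.46 ± 2.18 in WT (SD, n = 5, 4, 4 and 5), and those of the lymph node groups and of effector T cells lay at 0.457 CPM or below.

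Junb encodes a Jun-family protein with weaker transactivation than c-Jun (chr8:84974484-84978718, minus strand, 2301 exon bases). The ds2 tumour samples stood far above the rest: 1207 CPM in N, 1028 in HetNrp1def, 1689 in HetWT and 1325 in WT. The other 14 tumour Treg samples had 136 to 310 CPM, against 16.9 to 311 CPM in the 18 lymph node samples (median 168). Without the ds2 samples, no tumour sample lay above the highest lymph node sample.

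With all ds2 libraries left out, an alternative chosen after seeing the data, the log2 fold change of Junb was 0.71 and was not called (adjusted p = 0.309 by edgeR), while Fosl2 was 4.89 (adjusted p = 9.2e-07) and Atf3 3.93 (adjusted p = 0.00532). That left 2 members called, with 6.69% of genes called. Among same-numbered pairs, Junb was higher in the tumour in 15 of 16. The difference in log2(CPM + 1) was 2.43 to 2.88 in the ds2 pairs, 1.72 to 1.86 in the ds1 pairs and -0.51 to 2.18 in those of numbers 2, 3 and 4. A Junb exon shares up to 173 bases with an exon of Prdx2, a gene on the other strand with 210853 counts in all, and the strand setting of the counting is not given.

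Fos (chr12:85473890-85477273, plus strand) encodes c-Fos, and Fosb (chr7:19302696-19310051, minus strand) its close relative FosB. Fos ran from 34.0 to 725 CPM in tumour Tregs (median 189), against 0 to 410 CPM in lymph node Tregs (median 43.8). Fosb ran from 1.06 to 128 CPM in tumour Tregs (median 16.7), against 0 to 37.6 CPM in lymph node Tregs (median 1.14). Both ranges overlapped widely.

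Over all Tregs the log2 fold change was 1.17 ± 0.62 SE for Fos (adjusted p = 0.269 by edgeR) and 1.90 ± 0.86 for Fosb (adjusted p = 0.167), so neither was called. DESeq2 called Fosb (1.96, adjusted p = 0.0498), and limma on the deposited log2 values called both, Fos at 1.84 (adjusted p = 0.00686) and Fosb at 2.12 (adjusted p = 0.00800). With replicate number as a block, edgeR also called both, Fos at 2.02 (adjusted p = 0.000125) and Fosb at 3.26 (adjusted p = 0.000487). In same-numbered pairs each was higher in the tumour in 15 of 16, by a median of 1.95 for Fos and 1.82 for Fosb on the log2(CPM + 1) scale. The exception for Fos was WT ds1, with 34.0 CPM in the tumour and 58.1 in the lymph node, and for Fosb it was WT ds2, with 1.06 CPM in the tumour and 1.39 in the lymph node. Without the number 2 libraries, also an alternative chosen after seeing the data, 5 members were called, Fos (log2 fold change 1.97, adjusted p = 0.0303 by edgeR) and Fosb (3.42, adjusted p = 0.0131) besides the other 3, with 6.77% of genes called. Fosb was also called without HetWT lymph node number 2 (2.88, adjusted p = 0.0353 by edgeR) or without HetNrp1def lymph node number 2 (2.77, adjusted p = 0.0435).

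**Figure D3:**
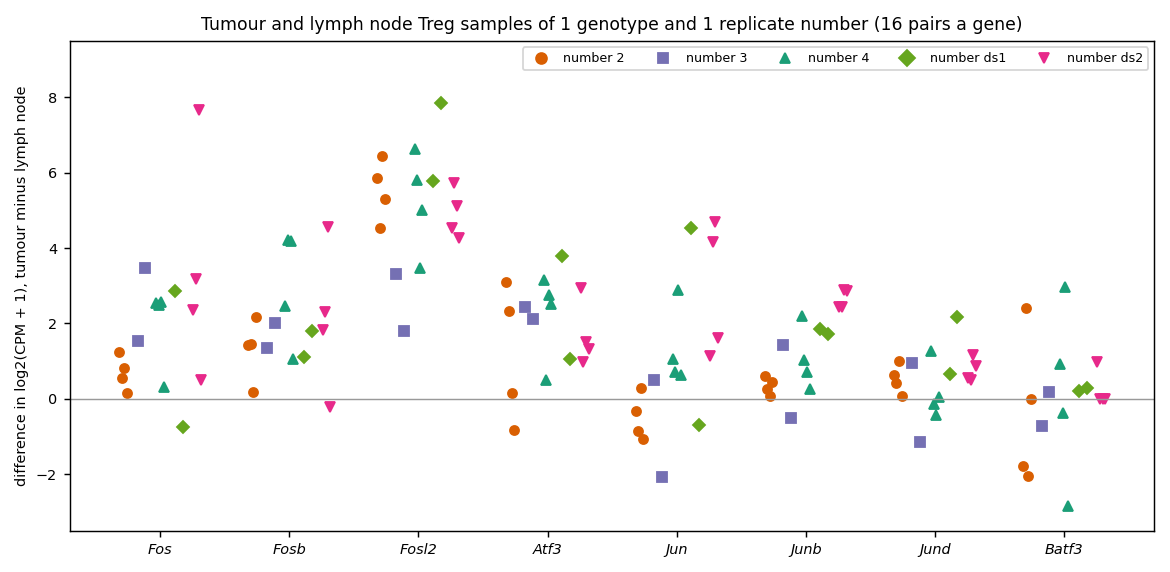
Difference in log2(CPM + 1) between tumour and lymph node Treg samples of the same genotype and replicate number, 16 pairs a gene, with colour and symbol giving the number. In the heterozygous groups, number 4 sums ds1 and 4 in the tumour but 3 and 4 in the lymph node. All 16 Fosl2 pairs lie above 0, as do 15 of 16 for Fos, Fosb, Junb and Atf3, against 11 for Jun, 13 for Jund and 7 for Batf3.

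Jun, Jund and Batf3 showed no called tissue difference. Jun (chr4:95049034-95052222, minus strand, 1 exon), the founding Jun-family member, ran from 7.24 to 207 CPM in tumour Tregs (median 31.8), against 2.20 to 97.4 CPM in lymph node Tregs (median 25.6), with a log2 fold change of 0.55 (95% interval -0.32 to 1.43). Jund (chr8:70698949-70700616, plus strand, 1 exon), the more constantly expressed member, ran from 36.6 to 227 CPM in tumour Tregs (median 82.5), against 23.1 to 160 CPM in lymph node Tregs (median 65.4), with a log2 fold change of 0.47 (-0.08 to 1.03). Batf3 (chr1:191097847-191108945, plus strand) was at 0 in 17 of 41 samples and never above 7.35 CPM, and its log2 fold change was 0.08 (-1.91 to 2.06). These intervals include changes of more than 1 log2 unit upward for all 3 genes. Annotated antisense genes overlap Jun (Junos, 232 exon bases) and Jund (Gm11175, 543 exon bases), so their reads cannot be told apart without a known strand setting.

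Per kilobase of exon, the members ranked alike in most groups. In N tumour Tregs Junb had 180 ± 194 CPM per kilobase, Fos 103 ± 72.9 and Jund 56.1 ± 29.0, followed by Jun (12.1 ± 10.5), Fosl2 (8.25 ± 3.09), Fosb (5.52 ± 6.73), Atf3 (4.80 ± 2.65) and Batf3 (0.549 ± 0.416; SD, n = 5 each). Junb, Fos and Jund held the first 3 places in each of the 9 groups. Fosl2 held rank 4 or 5 in the tumour Treg groups and rank 6 or 7 in the lymph node groups and in effector T cells. The SDs of most neighbours in this order overlapped.

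WT tumour Tregs were compared with effector T cells from WT tumours, which asks whether a member differs by cell type within the tumour. Fosl2 was the 1 member called of 8 tested, while 5.71% of all genes were called, 4.10% as higher in Tregs. It had 74.3 to 268 CPM in the 5 Treg samples (median 162), against 0.969 to 13.2 CPM in the 5 effector samples (median 5.38), a log2 fold change of 4.47 ± 1.10 SE (adjusted p = 0.00616 by edgeR). The groups did not overlap, but how many of all genes do so in 5 against 5 samples was not counted. On the log2 values the authors deposited, limma gave -0.36 (adjusted p = 0.978) for the same comparison, the opposite sign. With single-sorted samples alone the edgeR value was 3.85 and was not called (adjusted p = 0.0738). Markers of other cells moved with this comparison: 4 of 9 melanoma markers (Tyrp1, Dct, Mlana and Tyr, log2 fold changes 8.19 to 11.1) and 2 of 9 dendritic cell markers (Xcr1 6.75, Zbtb46 5.07) were called as higher in WT tumour Tregs. Their part in the Fosl2 difference was not tested.

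Junb had 239, 218, 161, 209 and 1325 CPM in WT tumour Tregs (2, 3, 4, ds1 and ds2), against 270, 88.4, 98.7, 12.1 and 115 CPM in effector T cells. Its log2 fold change of 1.88 ± 0.81 SE was not called (adjusted p = 0.201 by edgeR). Atf3 was at 2.46 ± 2.18 CPM in WT tumour Tregs and at 0.380 ± 0.428 CPM in effector T cells (SD, n = 5 each; log2 fold change 2.64, adjusted p = 0.400 by edgeR). The estimates for Fosb (2.08), Batf3 (1.05), Jund (0.86), Fos (-0.49) and Jun (-0.61) had 95% intervals that include 0. Fos was at 34.0 to 374 CPM in WT tumour Tregs and at 5.72 to 428 CPM in effector T cells, and the groups overlapped.

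The genotype comparisons ask whether the subunits differ with the genotype label. HetWT against WT sets groups not labelled Nrp1-deficient against each other, so it does not ask about loss of Nrp1. No member was called in any of 8 comparisons: N against WT, HetNrp1def against HetWT and HetWT against WT, each in the tumour and in the lymph node, and the difference of the tissue effect between N and WT and between HetNrp1def and HetWT. In edgeR's test 0 of 14668 genes (0%) were called in each of the 8, and 0 members had an unadjusted p below 0.05, while 291 to 952 genes did. DESeq2 called 0 members and between 4 and 254 genes. The intervals were wide, and a miss of the threshold does not show that the groups were alike.

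In the tumour, Atf3 had 10.3 ± 5.71 CPM in N, against 2.46 ± 2.18 CPM in WT (SD, n = 5 each; log2 fold change 2.06, 95% interval -0.94 to 5.07). Fosl2 was at 79.9 ± 30.0 CPM in N, against 155 ± 74.2 CPM in WT (SD, n = 5 each; log2 fold change -0.96, -2.89 to 0.97). In that comparison the 9 melanoma markers tested had a median log2 fold change of -3.19, with 0 estimates above 0 and 0 called. Their part in the members' estimates was not tested. Between HetNrp1def and HetWT tumour Tregs, the Fosl2 estimate was -0.06 (-2.20 to 2.07) and the Atf3 estimate -0.18 (-3.41 to 3.05). In the lymph node, Fosl2 in N against WT gave -1.92 (-3.92 to 0.08).

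The tissue effect of Fosl2 differed between N and WT by 0.96 on the log2 scale (95% interval -1.76 to 3.68), and between HetNrp1def and HetWT by 0.19 (-2.86 to 3.23). For Junb these differences were 0.54 (-1.71 to 2.80) and 0.16 (-2.36 to 2.68). In the lymph node comparisons of HetNrp1def with HetWT and of HetWT with WT, where same-numbered samples deviated together, the fit with replicate number as a block called no member either.

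For several members more of the variance lay between replicate numbers than between groups. Between the 5 numbers lay 52.6% of the variance of log2(CPM + 1) for Fos, 48.0% for Junb, 47.6% for Fosb and 47.3% for Jund, against 22.4%, 34.2%, 27.1% and 19.1% between the 9 groups in the same order. Jun (28.7% between numbers, 19.0% between groups) and Batf3 (16.9% and 13.9%) had the same order with smaller shares. For Fosl2 the share between groups was 85.2% and that between numbers 11.2%, and for Atf3 they were 66.1% and 6.45%. The median gene of all 14668 had 19.9% between groups and 20.4% between numbers. Numbers and groups are not fully crossed after the summing, so the shares overlap in part. In the heterozygous groups, number 4 also holds a ds1 library (tumour) or a number 3 library (lymph node). A share also rises with the number of classes, so 9 groups and 5 numbers do not have the same baseline.

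Number 2 samples had the highest Fos of their group in 7 of 9 groups, with ds1 highest in the other 2. Median Fos over samples was 372 CPM in number 2, 75.0 in number 3, 141 in number 4, 60.7 in ds1 and 24.4 in ds2. Fosb behaved alike: number 2 was highest in 8 of 9 groups, with a median of 36.6 CPM, against 0.919 to 12.7 CPM for the other 4 numbers. For Jun, number 2 was highest in 5 of 9 groups.

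The ds2 samples were highest in Jund in 7 of 9 groups, with a median of 118 CPM, against 52.8 to 79.2 CPM for the other numbers, and highest in Junb in 5 of 9. The ds2 libraries were also the shallowest, and in the lymph node ds2 Junb was 181 to 229 CPM, inside the range of the other samples. The part of depth and of double sorting in these values was not tested.

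**Figure D4:**
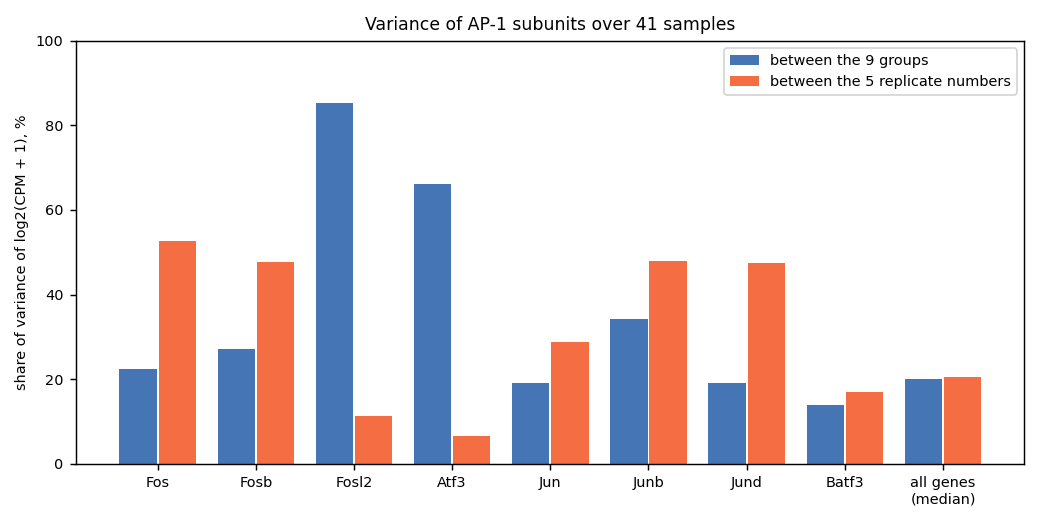
Share of the variance of log2(CPM + 1) over 41 samples that lies between the 9 groups (left bars) and between the 5 replicate numbers (right bars), for 8 AP-1 subunits and for the median of all genes tested. Fosl2 (85.2%) and Atf3 (66.1%) lie mostly between groups, and the other 6 members more between numbers than between groups.

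Relatives in the bZIP class, which can pair with or compete with AP-1, were read next from a list of 30 genes. Over all Tregs 11 rose and 1 fell in the tumour, while 5.84% of all genes rose and 5.37% fell. The median log2 fold change of the list was 0.31, against -0.08 for all genes. Batf2 (4.75, adjusted p = 0.00138 by edgeR), Nfe2 (3.35, adjusted p = 0.0173), Jdp2 (3.28, adjusted p = 0.000177) and Crem (3.02, adjusted p = 5.6e-07) rose, and Bach2 fell by 3.20 (adjusted p = 2.9e-07). Jdp2 is a Jun dimerization partner that represses AP-1 targets, Crem a repressor or activator at cyclic AMP response elements, and Bach2 a repressor that competes with AP-1 at its sites and maintains resting T cells.

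Jdp2 had 10.5 to 55.4 CPM in tumour Tregs (median 26.1), against 0 to 9.85 CPM in lymph node Tregs (median 1.72), and the groups did not overlap. Crem had 202 to 562 CPM in tumour Tregs (median 337), against 0.450 to 144 CPM in lymph node Tregs (median 42.5), also without overlap. Of the 14668 genes tested, 41 (0.280%) had every tumour Treg sample above every lymph node one. Bach2 had a median of 13.1 CPM in tumour Tregs, against 119 CPM in lymph node Tregs and 203 CPM in effector T cells. Batf2 and Nfe2 were near the detection limit, with medians of 0.110 and 0.159 CPM in the tumour and 0 in the lymph node.

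Set against effector T cells, WT tumour Tregs had 8 of the 30 relatives higher and 1 lower (median 0.67, against 0.07 for all genes). Of all genes, 4.10% were higher and 1.61% lower. Nfil3 (8.12, adjusted p = 2.4e-06 by edgeR), Jdp2 (6.98), Maf (5.64) and Crem (5.55) rose and Bach2 fell by 4.09 (adjusted p = 0.000758). Maf, which drives interleukin-10 in T cells, was at 1055 ± 744 CPM in WT tumour Tregs and at 21.2 ± 21.2 CPM in effector T cells (SD, n = 5 each). Crem was at 395 ± 110 CPM and 8.45 ± 7.67 CPM in the same groups. Without the ds2 libraries 4 relatives were called as higher.

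Upstream, the mitogen-activated protein (MAP) kinases phosphorylate Jun and drive Fos transcription, and the DUSP phosphatases inactivate them. Of 29 MAP kinase pathway genes tested, 2 rose and 3 fell in tumour Tregs (median -0.19), while 5.84% of all genes rose and 5.37% fell. Map2k3 (1.49) and Mapkapk2 (1.47), both of the p38 branch, rose, while the p38 kinases Mapk11 (-1.79) and Mapk14 (-0.81) and the kinase Map3k7 (-1.31) fell. Without the ds2 libraries 1 of 30 rose and 0 fell. Mapkapk2 was at 63.6 to 312 CPM in tumour Tregs (median 184), against 3.60 to 113 CPM in lymph node Tregs (median 55.7). Against effector T cells, 2 rose, again Map2k3 (2.45) and Mapkapk2 (2.04), and Mkl1, a cofactor of SRF, fell by 2.34. None of these 3 calls was made without the ds2 libraries, without the number 2 libraries or by limma on the deposited log2 values.

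Of 11 DUSP genes 4 rose and 0 fell in tumour Tregs (median 1.11), while 5.84% of all genes rose and 5.37% fell. The 4 were Dusp3 (3.44), Dusp14 (3.01), Dusp5 (2.88) and Dusp1 (1.82, adjusted p = 0.00572 by edgeR). Dusp1, itself an immediate early gene, was at 47.1 to 501 CPM in tumour Tregs (median 184), against 0.900 to 231 CPM in lymph node Tregs (median 41.3). Against effector T cells Dusp4 (5.39) and Dusp16 (4.81) rose, as did 4.10% of all genes. Of 6 NFAT and IRF partners, Irf8 alone was called, higher in tumour Tregs (1.81, adjusted p = 0.00725 by edgeR), and it is also a dendritic cell marker.

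Of 25 other immediate early genes, 7 rose and 2 fell in tumour Tregs (median -0.01), while 5.84% of all genes rose and 5.37% fell. Ier3 (4.24), the nuclear receptor Nr4a2 (2.32), the stress gene Gadd45b (2.05) and Tnfaip3, an NF-kB inhibitor (1.94, adjusted p = 8.3e-06 by edgeR), rose, and Klf2, which maintains lymph node homing, fell by 1.84 (adjusted p = 5.7e-07). Against effector T cells 6 of 25 rose and 1 fell (of all genes 4.10% and 1.61%), led by Rgs1 (5.82), Nr4a2 (5.65), Gadd45b (3.11), Klf2 (-2.55) and Nr4a1 (2.53). Without the ds2 libraries 3 rose and 1 fell in that comparison. Of 15 heat shock genes, 2 rose in tumour Tregs, Hspa1a (4.16) and Hspa5 (0.52), and Dnajb4 fell by 1.52, against 11.2% of all genes called, and without the ds2 libraries 1 rose and 0 fell. Hspa1a shares nearly all of its sequence with Hspa1b, so their counts are uncertain. Against effector T cells Hspa5 (1.09) rose and Dnajb4 fell by 2.99, and neither was called without the ds2 libraries, without the number 2 libraries or with no low count filter.

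Markers of other cells were read in the same samples. Melanoma markers, all 9 tested of 10, were higher in tumour Tregs, and their sum was 5.71 to 3783 CPM in tumour Tregs (median 47.1), 1.11 to 72.7 CPM in lymph node Tregs (median 14.5) and 3.74 to 80.4 CPM in effector T cells. Of the defining melanoma genes, Mlana was at 0 in 4 of 18 tumour Treg samples and in 15 of 18 lymph node ones, and Tyrp1 in 0 and 10. The tumour sample with the lowest melanoma sum, N ds1 at 5.71 CPM, had 66.1 CPM of Fosl2, 17.6 of Atf3 and 136 of Junb.

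Of 9 macrophage markers 3 were higher in tumour Tregs, with a sum of 1.49 to 286 CPM in tumour Tregs (median 76.7), 0 to 122 CPM in lymph node Tregs (median 39.6) and 3.15 to 28.0 CPM in effector T cells. Cd14 was at 0 in 10 of 18 tumour and 14 of 18 lymph node Treg samples. WT ds2, with the lowest macrophage sum of the tumour samples (1.49 CPM), had 74.3 CPM of Fosl2 and 1325 CPM of Junb. Its Atf3, at 1.49 CPM, was below the highest lymph node sample (1.61 CPM). Of 9 dendritic cell markers 3 were higher (Zbtb46, Xcr1 and Irf8), with a sum of 104 to 976 CPM in tumour Tregs (median 256), 26.1 to 447 CPM in lymph node Tregs (median 285) and 3.15 to 154 CPM in effector T cells. Only 5 of the 9 had an estimate above 0. The medians of H2-Ab1, Siglech, Flt3, Cd209a and Clec9a were lower in tumour than in lymph node Tregs, for H2-Ab1 51.2 against 152 CPM. Of 8 B cell markers 6 were lower in tumour Tregs, with a sum of 4.03 to 86.7 CPM in tumour Tregs (median 23.3) and 3.48 to 702 CPM in lymph node Tregs (median 235). In other lists, 1 of 4 endothelial markers (Pecam1) fell, and 0 of 5 fibroblast, 3 NK cell and 2 CD8 T cell markers were called. Beside these marker counts, 5.84% of all genes were higher and 5.37% lower in tumour Tregs. The part of the marked cells in the members' differences was not tested.

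For each member, the 3 tested genes with the most alike log2(CPM + 1) were read over the 41 samples, which share libraries, replicate numbers and tissue. Fosl2 was most like Ly6a (Pearson r 0.90), Sv2c (0.87) and Lilrb4 (0.87), which had tumour medians of 2695, 51.6 and 118 CPM and lymph node medians of 331, 2.08 and 0.569 CPM. Atf3 was most like Cables1 (0.78), Galnt3 (0.77) and Muc1 (0.75), and Junb most like Aplp2 (0.77), Bcl3 (0.76) and Rnf125 (0.76). Ly6a encodes the surface antigen Sca-1, and Bcl3 an atypical IkB protein.

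Fos was most like Gna13 (0.76), Ppp1r16b (0.75) and Sub1 (0.70), and Fosb most like Hspa1b (0.76), Zc3h7a (0.75) and Rps4y2 (0.72). Jun had the lowest values, with Cdkn1b (0.61), B2m (0.59) and Rgs2 (0.58). Jund was most like Snx20 (0.78), Jak3 (0.78) and Eva1b (0.75). Batf3 was most like Itgax (0.70), Lpar2 (0.67) and Gcsam (0.63), and Itgax is a dendritic cell marker at a median of 1.49 CPM in tumour Tregs, against 0.464 CPM in lymph node Tregs.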

How the data were processed

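The authors deposited 2 tables, raw counts by gene and normalized, filtered log2 values; STAR, featureCounts, limma and mm10 are named, per the submitters' processing notes. Tool versions, annotation and strand setting: not given in the sources used here. The log base was read as 2 from the values. Members and gene lists were chosen with earlier results of these data known. Libraries of a group with a chi-square per degree of freedom below 5, a limit set after seeing the values, were summed. Counts were tested with edgeR 4.0.16 (R 4.3.3): TMM, filterByExpr by group, robust quasi-likelihood fits of all 9 groups with 32 residual degrees of freedom, no covariates, Benjamini-Hochberg adjustment over the 14668 genes within each contrast, threshold 0.05. SEs are the absolute log2 fold change over the root of F, and 95% intervals use them. CPM are TMM-scaled. Coordinates come from GENCODE vM21 (mm10), matched to 92.98% of symbols, and promoters from RefSeq. Named genes are all members, up to 5 called genes a list by absolute log2 fold change, the 3 genes most alike each member, and results that stood apart. Alternatives were DESeq2 1.42.0, RLE normalization, no filter, a replicate block, 45 unsummed libraries, limma 3.58.1 on the deposited log2 values, single- or double-sorted samples alone and leaving out samples. Scripts were tested on simulated data. In lymph node HetNrp1def against HetWT and HetWT against WT the same-numbered samples were taken as pairs, from their values and not the labels (lowest r of deviations 0.143 and 0.117, 4 pairs each).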

Additional observations from a re-analysis of the deposited data

Results flagged for a closer look

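In groups of 4 or 5 samples, 15 values of 68 groups of a member lay farther from the nearest other value than Dixon's 95% limit allows. That limit assumes a normal spread, and many of these groups have SDs near or above their means. The number expected by chance is therefore not known. Of the 15, 6 were number 2 samples, 5 ds2, 2 number 3, and number 4 and ds1 gave 1 each. Junb stood high in ds2 of all 4 tumour Treg groups, at 1207 CPM in N, 1028 CPM in HetNrp1def, 1689 CPM in HetWT and 1325 CPM in WT. Jund stood high in HetWT tumour ds2, at 227 CPM.

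Number 2 stood high for Fosb in WT tumour Tregs (128 CPM) and in HetNrp1def (19.2 CPM) and HetWT (31.9 CPM) lymph node Tregs, for Fos in HetWT lymph node Tregs (410 CPM), for Jun in N lymph node Tregs (45.2 CPM) and for Batf3 in HetNrp1def tumour Tregs (6.09 CPM). Number 3 stood high for Fosl2 in N (8.48 CPM) and WT (29.4 CPM) lymph node Tregs, both still below every tumour Treg sample. Batf3 stood high in WT lymph node number 4 (6.12 CPM), and Atf3 in HetWT lymph node ds1 (1.61 CPM).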

How the results depend on the processing

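Over all Tregs Fosl2 was called under all 10 alternatives to the edgeR fit (log2 fold change 4.20 to 6.01), Atf3 under 9, Junb under 7, Fosb under 4 and Fos under 3, always as higher in the tumour. The main count of 3 members became 5 with the replicate block, with limma on the deposited log2 values and without number 2, and 1 with double-sorted samples alone. The block added Fos (2.02, adjusted p = 0.000125 by edgeR) and Fosb (3.26, adjusted p = 0.000487). With single-sorted samples Junb was 0.48 (adjusted p = 0.289 by edgeR). Leaving out single samples gave 3 to 4 members.

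In N Tregs the count of 1 became 2 with DESeq2, 3 with the block (which added Junb and Atf3) and with limma, and 0 with single-sorted or double-sorted samples alone or without number 2, where Fosl2 was 4.98, 6.15 and 4.90; leaving out samples gave 1 to 1. In HetNrp1def and in WT Tregs 1 became 0 with no filter, limma, single-sorted or double-sorted samples alone, or without number 2 or ds2, with Fosl2 at 4.34 to 6.60 in HetNrp1def and 2.74 to 6.47 in WT, and leaving out samples gave 0 to 1. In HetWT Tregs 0 became 1 with DESeq2, the block and 45 libraries, and leaving out samples gave 0 to 1. For WT tumour Tregs against effector T cells 1 became 2 with the block (adding Junb, 1.67, adjusted p = 0.0163 by edgeR) and 0 with limma, single-sorted or double-sorted samples alone; the limma value of Fosl2 there was -0.36. In the 8 genotype comparisons the count was 0 under every alternative run. The double-sorted samples alone leave 1 or 2 samples a group. The single-sorted samples include the summed heterozygous tumour samples that hold a ds1 library. Otherwise the cause was not tested.

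With 45 libraries the variance between numbers was 3.34% for Atf3 and 3.88% for Fosl2, and that between groups 16.4% for Jund. Same-numbered samples deviated together in every pair (r above 0.1) only in 2 lymph node comparisons, so elsewhere the numbers were not taken as pairs, although Fos, Fosb, Junb and Jund varied much with the number and the lowest r in N was just under that limit. Over all Tregs 2031 genes were called with the block, against 1644 without it, 1023 with limma, 983 without number 2 and 78 with double-sorted samples alone. All genes called in WT Tregs were 128, against 486 with DESeq2, 382 with the block and 7 with limma, in N 116 against 407, 313 and 340, in HetNrp1def 96 against 777, 190 and 6, in HetWT 35 against 281, 93 and 18, and against effector T cells 838, against 1592, 1284 and 58. With double-sorted samples alone 0 to 3 genes were called in a genotype and 51 against effector T cells, and without number 2, 13 to 36 and 512. Single-sorted samples gave 181 in N, 110 in HetWT and 362 in WT, 45 libraries 277 in HetNrp1def and 142 in HetWT, RLE 178 and no filter 59 in HetNrp1def, and omitting ds2 43 in HetNrp1def and 19 in HetWT. Batf3 and Fosl1 had the fewest counts of the members, at 807 and 21 in all, and the part of depth in this was not tested.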
